A study of Mus musculus with 28 samples.

Results

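Nascent RNA of 8 genes of the MYC network was examined: Myc and Mycn, their partner Max, and the other MAX partners Mnt, Mga, Mxd3, Mxd4 and Mxi1. The members were the rows with these names in 3 Bru-seq tables, and all 8 were found among the 24980 gene symbols of each table. Bru-seq labels newly made RNA with bromouridine (BrU) and sequences the labelled RNA. The cells were mouse embryonic stem cells (ESCs), either wild type (WT) or null for EloA on both alleles (EloA-/-). EloA encodes Elongin A, a factor that stimulates elongation by RNA polymerase II in vitro. The study reports only a limited effect of its loss on the elongation rate in these cells. Each genotype was labelled for 10 min with 2 mM BrU in steady state, and after 60 min in 1 µM flavopiridol, with BrU present during 5 min or 10 min of recovery. Flavopiridol inhibits CDK9, the kinase that releases paused polymerase, so after its removal polymerases move into genes from the 5′ end. Each of the 6 groups had 2 libraries, and the study had another 16 samples that were not analysed here.

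The ESC line is given as CCE28 for growth and as CJ7 for the treatment, and the EloA null cells are a line received as a gift, so a group shows 1 line and not several clones. The cells were cultured in 2i and LIF on mouse embryonic fibroblast feeders and depleted of feeders before use. Sample titles set the genotypes, and the first steady-state library titled EloA null has a genotype label of wild type. The libraries labelled EloA null are called null libraries here. Bru-seq replicates are described as independent experiments in legends of the study, without saying whether these were separate cultures. The p-values for genotype rest on the spread between the 2 libraries of a group, with the variance of each gene drawn toward a trend over all genes.

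MYC proteins are basic helix-loop-helix leucine zipper transcription factors that bind DNA as dimers with MAX, at E-boxes with the core CACGTG, and raise transcription of genes for growth and ribosome production. MNT and the MXD proteins bind the same sites with MAX and recruit SIN3 corepressors, and MGA brings MAX into the Polycomb complex PRC1.6, which silences germ line genes in ESCs. In ESCs, c-Myc and N-Myc both support self-renewal.

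The library sizes behind the RPKM values were 9857518 to 28547373, as worked out from the steps in which the values of short genes rise. RPKM is reads per kilobase of gene, scaled to the size of the library. Whether that size is the read total or was adjusted in normalization is not given. Between 96.3% and 96.8% of genes gave whole reads, within 0.05 of a read, when the length of a gene was taken as that of its introns with 1 exon base at each end, and all values of the 8 genes did so. At most 10.5% gave whole reads with the whole span. This shows which length divided the reads and not which reads were counted. The study states that reads in the whole gene were counted. The intron lengths given below are this divisor. The 6 pluripotency markers Pou5f1, Sox2, Nanog, Klf4, Esrrb and Zfp42 summed to between 131.5 and 241.2 RPKM per library, and the 8 fibroblast markers to between 2.28 and 5.02 RPKM, with Dcn and Lum at or near 0. Nascent Eloa RNA was higher, not lower, in the null libraries, at 1.96 and 1.89 RPKM against 1.18 and 1.16 in WT steady state, and likewise during recovery. It thus shows no loss of Eloa RNA in the null libraries. The null library with a genotype label of wild type was the one at 1.96 RPKM, near the other null library and apart from WT. Whether the labels are right was not tested further.

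The motif that MYC and MAX bind is also present near the starts of some of these genes. RefSeq promoter entries (250 bases before and 50 bases after a start, GRCm38.p6, the assembly that the submitters call mm10) were available for 7 of the 8 genes, and the entry for Myc was missing. The 7 genes had 9 entries. CACGTG reads the same on both strands, and it was found in the promoters of 3 genes, Max, Mnt and Mxd4. Of all 32851 promoter entries, 7.15% held it, which is a share of entries and not of genes. The letters around each match are shown 5′ to 3′ on the gene's own strand, with the E-box core in capitals. A match is a description of the sequence and not evidence of binding.

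Max, chr12:76962235-76962262, minus strand, core from 3 bases before the start: gtgagcccggtCACGTGttagggggccg
Mnt, chr11:74830790-74830817, plus strand, core from 123 bases before the start: cccacccaagcCACGTGtgcgcgcgcgg
Mxd4, chr5:34187913-34187940, minus strand, core from 219 bases before the start: ggctgggccacCACGTGctgttgctaag

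Mycn was the main MYC family gene transcribed in these cells, and Myc was low. In WT steady state, the order of levels was Mga, Mycn, Max, Mnt, Mxi1, Mxd3, Myc and Mxd4, and only the neighbours Mycn and Max overlapped between libraries. The means ran from 6.11 ± 0.78 RPKM for Mga (SD, n = 2) to 0.176 ± 0.036 RPKM for Mxd4. In the steady-state null libraries Mycn came first, at 6.71 ± 0.32 RPKM, and the order of the other genes did not change. At 10 min of recovery Max came first, at 8.70 ± 0.65 RPKM in WT and 9.02 ± 0.036 RPKM in the null libraries, followed by Mycn and Mga. Overlaps between neighbours were most common at 5 min of recovery, where Myc, Mnt, Mxd3 and Mxi1 followed each other with overlapping libraries in both genotypes. Levels were compared between genes per base of intron, and all were within 1 table. If exon reads were counted too, as the study states for whole genes, levels are raised more for genes with much exon. Exons covered 2399 bases in Myc, 2596 in Mycn and 2351 in Max, beside 2629, 3152 and 23008 bases of intron. The order between such genes thus depends on which reads were counted.

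**Figure D1:**
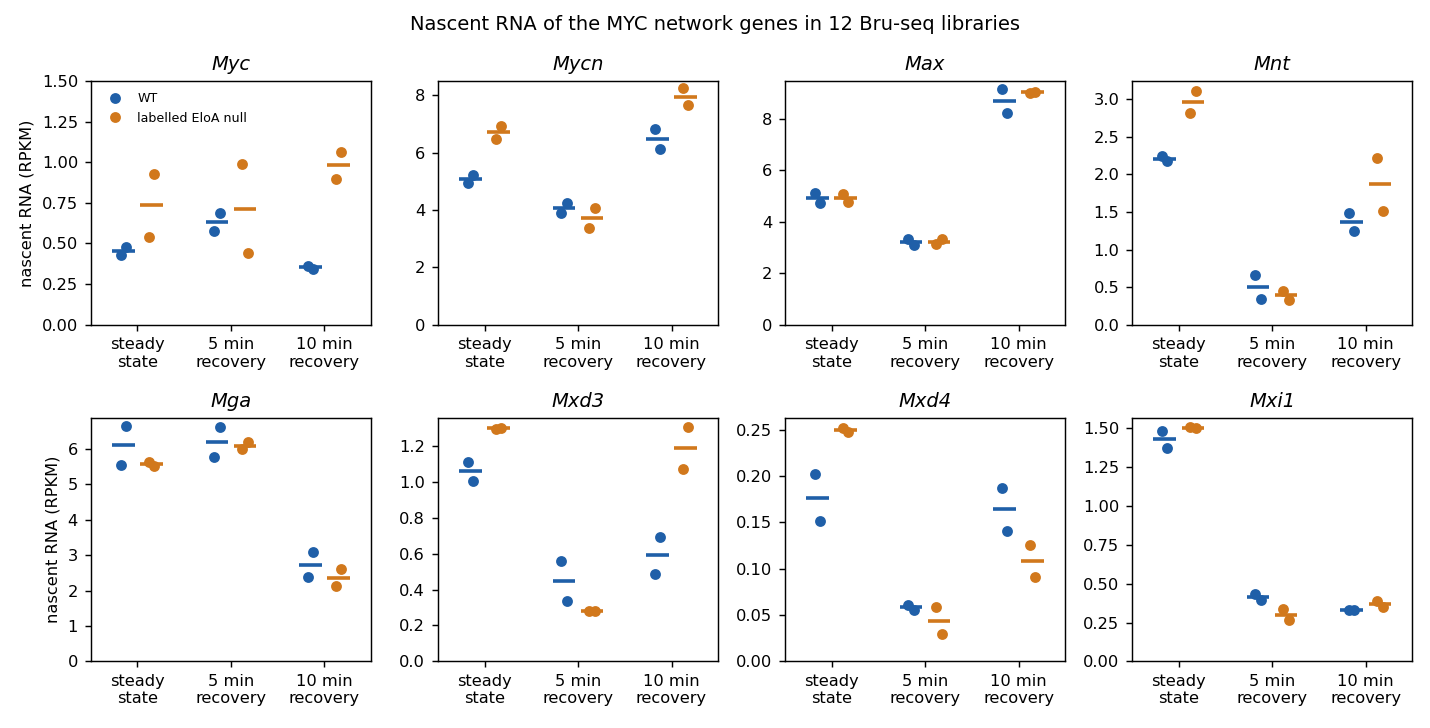
Nascent RNA of the 8 genes (RPKM, vertical axis from 0, a separate scale per gene) in steady state and after 5 min and 10 min of recovery. Points are single libraries, 2 per group, and bars are group means. WT is blue and libraries labelled EloA null are orange. At 10 min both null libraries lay above both WT libraries for Myc and Mxd3, while the genotypes overlapped for Max in all 3 conditions.

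Genotype was compared within each table with limma on log2(RPKM + 0.1), for genes with a mean above 0.5 RPKM in either genotype, and with Benjamini-Hochberg adjustment over all genes tested. Of the 8 genes, 7 were tested in steady state, 5 at 5 min and 6 at 10 min of recovery. None of those tested passed an adjusted p of 0.05, and the percentage of all tested genes that passed was 0.0% in each condition. At an unadjusted p under 0.05, limma gave 3 of the genes in steady state (Mycn, Mnt and Mxd3), 0 at 5 min and 3 at 10 min (Myc, Mycn and Mxd3), and 2083, 846 and 2098 genes of all. Fold changes on this scale understate the change of low genes.

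The ranges of the libraries were also compared. In steady state, both null libraries were above both WT libraries for 6 of the 8 genes and below for 0. Among the 7 tested members they were above for 5, of which Myc passed the limit only through the null libraries, while 32.0% of all 11345 tested genes were above and 21.4% below. At 5 min of recovery they were above for 0 and below for 2, Mxd3 and Mxi1, both under the limit. Among the 5 tested members they were above for 0 and below for 0, while 15.4% of 8984 tested genes were above and 25.0% below. At 10 min they were above for 5 and below for 1, Mxd4. Among the 6 tested members they were above for 4, of which Myc passed only through the null libraries, and below for 0, while 33.5% of 10239 tested genes were above and 21.8% below. The ratio of mean RPKM was past 1.5-fold and higher for 1 tested member in steady state (Myc), where 9.31% of all genes were past it, 7.21% higher and 2.1% lower in the null libraries. It was for 0 members at 5 min, where 12.1% of genes were, 5.4% higher and 6.72% lower, and for 2 at 10 min, Myc and Mxd3, both higher, where 12.4% of genes were, 9.41% higher and 3.01% lower. Of all genes past 1.5-fold, 77.5% in steady state, 44.5% at 5 min and 75.8% at 10 min were higher in the null libraries. With the libraries centred on their medians, quantile normalized, or with the trend with gene length or GC content removed, these shares were 61.5% to 68.7%, 53.0% to 55.2% and 58.9% to 62.0%.

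Myc, which encodes c-Myc, lies at chr15:61985341-61990361 on the plus strand. Its reads, 15 to 80 per library, were divided by 2629 bases of intron. In steady state it was at 0.430 and 0.477 RPKM in WT and at 0.542 and 0.925 RPKM in the null libraries. At 5 min of recovery it was at 0.579 and 0.691 RPKM in WT and at 0.990 and 0.440 RPKM in the null libraries. At 10 min it was at 0.364 and 0.345 RPKM in WT and at 0.895 and 1.07 RPKM in the null libraries. The genotypes were apart in steady state and at 10 min, and at 5 min the null libraries lay on either side of WT.

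The 10 min difference of Myc was the largest among the members, at 2.77-fold by mean RPKM and 1.25 ± 0.17 on the log2 scale (SE, adjusted p = 0.0968, limma). It rested on 18 and 20 reads in WT against 47 and 80 reads in the null libraries. The exact 95% Poisson intervals reached up to 0.575 and 0.533 RPKM in WT and down to 0.658 and 0.845 RPKM in the null libraries. These intervals cover counting error only, and the libraries of a group differed by more than that, with a chi-square per degree of freedom over all genes of 14.1 in WT and 9.53 in the null libraries at 10 min. Also, reads without molecular identifiers are not independent molecules. Over all 14 alternatives the log2 difference ran from 0.55 to 1.44 and the adjusted p from 0.0582 to 0.314, and 0.55 was obtained with a pseudocount of 1 RPKM. Myc passed the limit of 0.5 RPKM only through the null libraries at 10 min and in steady state, where the difference was 0.55 ± 0.26 (adjusted p = 0.350, limma). Without the second steady-state null library this fell to 0.22, and without the first it was 0.89. At 5 min the log2 difference was 0.07 ± 0.37 (adjusted p = 0.972), and it was -0.44 without the first null library and 0.57 without the second.

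Pvt1, the noncoding RNA gene next to Myc, was read beside it. Its levels at 10 min were 5.48 and 5.71 RPKM in WT and 4.94 and 5.42 RPKM in the null libraries, a log2 difference of -0.11 ± 0.10 (adjusted p = 0.554, limma). In steady state it was at 5.55 and 5.29 RPKM in WT and at 5.26 and 5.77 RPKM in the null libraries. Levels of Pvt1 at 5 min ran from 12.5 to 14.1 RPKM over the 4 libraries.

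Mycn, which encodes N-Myc, lies at chr12:12936093-12941836 on the minus strand and had 121 to 689 reads per library over 3152 bases of intron. In steady state it was at 4.95 and 5.22 RPKM in WT and at 6.49 and 6.93 RPKM in the null libraries. At 5 min it was at 3.89 and 4.26 RPKM in WT and at 3.35 and 4.08 RPKM in the null libraries. At 10 min it was at 6.81 and 6.11 RPKM in WT and at 8.25 and 7.66 RPKM in the null libraries. The null libraries were thus above WT in steady state and at 10 min and overlapped WT at 5 min. The log2 difference was 0.39 ± 0.09 in steady state (adjusted p = 0.161, limma), -0.14 ± 0.18 at 5 min (adjusted p = 0.869) and 0.30 ± 0.11 at 10 min (adjusted p = 0.234). With the trend of fold changes with GC content removed, the steady-state and 10 min differences of Mycn fell to 0.16 and 0.021, and with the trend with gene length removed to 0.19 and 0.032.

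Max, the shared dimer partner, lies at chr12:76937269-76962248 on the minus strand and had 752 to 5944 reads per library over 23008 bases of intron. In steady state it was at 5.11 and 4.71 RPKM in WT and at 5.05 and 4.78 RPKM in the null libraries. At 5 min it was at 3.32 and 3.11 RPKM in WT and at 3.12 and 3.34 RPKM in the null libraries. After 10 min it was at 9.16 and 8.23 RPKM in WT and at 8.999 and 9.050 RPKM in the null libraries. The genotypes overlapped in all 3 conditions. Log2 differences of Max were 0.0021 ± 0.093, 0.0076 ± 0.16 and 0.055 ± 0.099 in that order (SE, n = 2 per genotype), and the first and the last changed sign with another scaling.

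Among the repressor genes, Mnt, whose protein is the broadly expressed antagonist of MYC, lies at chr11:74830924-74845725 on the plus strand and had 45 to 887 reads per library. Steady-state levels were 2.24 and 2.17 RPKM in WT and 2.82 and 3.10 RPKM in the null libraries. Levels at 5 min were 0.665 and 0.347 RPKM in WT and 0.451 and 0.328 RPKM in the null libraries. Levels at 10 min were 1.48 and 1.25 RPKM in WT and 2.22 and 1.52 RPKM in the null libraries. The null libraries were above WT in steady state and at 10 min, and the genotypes overlapped at 5 min, where Mnt passed the 0.5 RPKM limit only through WT. The log2 difference was 0.41 ± 0.089 in steady state (adjusted p = 0.151, limma), and it was 0.10 with the GC trend removed. At 10 min the log2 difference was 0.41 ± 0.21 (adjusted p = 0.342), and 0.022 with the GC trend removed, 0.67 without the second null library and 0.15 without the first.

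Mxd3, whose protein is an MXD family repressor found in proliferating cells, lies at chr13:55325170-55329731 on the minus strand and had 11 to 122 reads per library. Steady-state levels were 1.11 and 1.01 RPKM in WT and 1.29 and 1.30 RPKM in the null libraries. Levels at 5 min were 0.558 and 0.338 RPKM in WT and 0.282 and 0.283 RPKM in the null libraries. Levels at 10 min were 0.487 and 0.692 RPKM in WT and 1.07 and 1.31 RPKM in the null libraries. The genotypes did not overlap in any condition, and the null libraries were the higher in steady state and at 10 min and the lower at 5 min. The 10 min difference was 2.02-fold by mean RPKM and 0.91 ± 0.21 on the log2 scale (adjusted p = 0.153, limma), and 0.57 with the GC trend removed. In steady state the log2 difference was 0.27 ± 0.091 (adjusted p = 0.235), and -0.00040 with the GC trend removed. Mxd3 overlaps Prelid1, a gene on the opposite strand, by 103 bases, and Prelid1 was at 5.20 RPKM in WT steady state, so their reads can be told apart in the overlap only where counting used strand. The libraries were made with directional second strand synthesis and aligned reads were separated by strand, but the setting used in counting is not given.

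Mxd4 had the lowest level of the 8 genes in each group. This MXD repressor gene lies at chr5:34176580-34187710 on the minus strand, had 5 to 69 reads per library, and stayed under the 0.5 RPKM limit in all conditions, so it entered no main test. Steady-state levels were 0.202 and 0.151 RPKM in WT and 0.252 and 0.248 RPKM in the null libraries. Levels at 10 min were 0.187 and 0.141 RPKM in WT and 0.126 and 0.0914 RPKM in the null libraries. The null libraries were above WT in the first case and below WT in the second. At 5 min the levels of Mxd4 ran from 0.0291 to 0.0611 RPKM over the 4 libraries, on 5 to 7 reads, and the genotypes overlapped.

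Mxi1, also called Mxd2 and another MXD repressor gene, lies at chr19:53310506-53373293 on the plus strand and had 242 to 2526 reads per library over 60159 bases of intron. Steady-state levels were 1.49 and 1.37 RPKM in WT and 1.507 and 1.502 RPKM in the null libraries. Levels at 5 min were 0.433 and 0.395 RPKM in WT and 0.338 and 0.265 RPKM in the null libraries. Levels at 10 min were 0.331 and 0.329 RPKM in WT and 0.387 and 0.348 RPKM in the null libraries. The null libraries were above WT in steady state and at 10 min and below WT at 5 min. Only the steady-state difference was tested, since Mxi1 was under the 0.5 RPKM limit during recovery, and it was 0.070 ± 0.083 on the log2 scale (adjusted p = 0.684, limma). The direction of this small difference turned with quantile normalization and with the GC trend removed. The gene holds Gm30541 on the opposite strand over 16362 bases, and the tables have no row of that name.

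Mga, the largest protein of the network and the one that enters PRC1.6, lies at chr2:119897228-119969581 on the plus strand and had the most reads, 2512 to 10983 per library over 59094 bases of intron. Steady-state levels were 5.56 and 6.66 RPKM in WT and 5.63 and 5.52 RPKM in the null libraries. Levels at 5 min were 5.77 and 6.62 RPKM in WT and 6.00 and 6.19 RPKM in the null libraries. Levels at 10 min were 2.37 and 3.09 RPKM in WT and 2.13 and 2.60 RPKM in the null libraries. The genotypes overlapped in all 3 conditions. Its log2 difference was -0.12 ± 0.12, -0.019 ± 0.17 and -0.20 ± 0.18 in that order, with adjusted p from 0.556 to 0.981 (limma), and the sign in steady state and at 5 min turned with the GC trend removed.

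**Figure D2:**
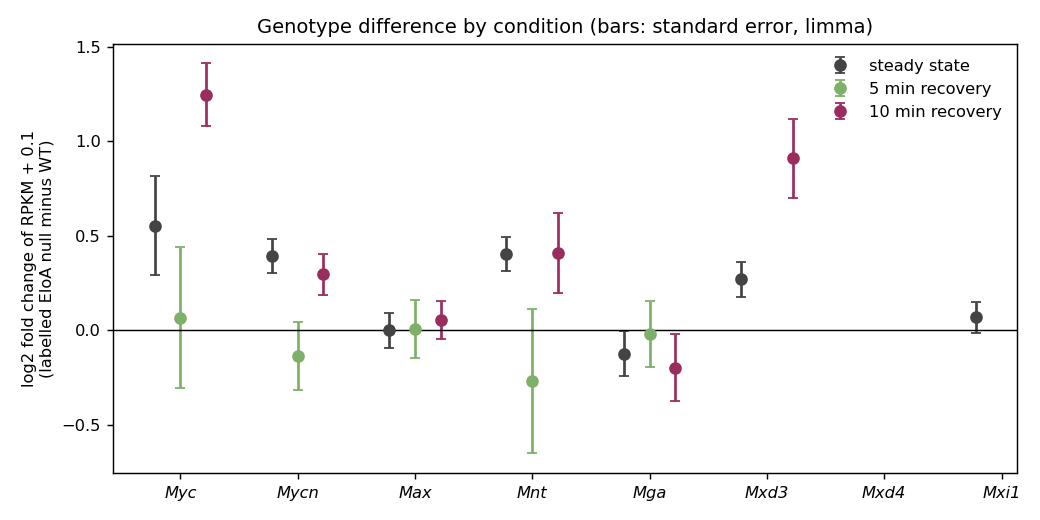
Log2 fold change of RPKM + 0.1, libraries labelled EloA null minus WT (vertical axis), for each gene tested by limma in steady state, at 5 min and at 10 min of recovery. Points are fitted differences of 2 against 2 libraries and bars are standard errors. Mxd4 was under the 0.5 RPKM limit throughout, and Mxd3 and Mxi1 have no point in the conditions where they were under it. Myc and Mxd3 at 10 min lay highest, at 1.25 and 0.91, and no point passed an adjusted p of 0.05.

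Whether the genotype difference itself changed with the condition was tested in a fit of all 12 libraries, in which a scaling shared by both genotypes of a table cancels. None of the 7 members tested passed, either at 5 min or at 10 min against steady state, where 0.1% and 0.00835% of all 11973 genes passed. At 5 min the log2 difference between genotypes was below that in steady state, with a change of -0.53 ± 0.16 for Mycn (adjusted p = 0.658, limma), -0.43 ± 0.17 for Mxi1 (adjusted p = 0.705) and -0.76 ± 0.30 for Mxd3 (adjusted p = 0.705). These 3 of the 7 members were the ones with an unadjusted p under 0.05, as were 780 of all 11973 genes. None of the 3 stayed under it with the libraries centred on their medians or the length trend removed. At 10 min the changes for Myc and Mxd3 were 0.69 ± 0.46 and 0.64 ± 0.30, and neither had an unadjusted p under 0.05.

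Levels during recovery were set beside those in steady state. No source used here gives the scaling between the 3 tables, and the labelling time was 5 min in one of them, so these ratios are a description with no test. Each was read beside the median ratio of expressed genes of 0.67 to 1.5 times the length of the gene. At 5 min the highest ratios in WT were those of Myc (1.40) and Mga (1.01), and the lowest were those of Mnt (0.229), Mxi1 (0.290) and Mxd4 (0.331). The medians of genes of like length were 0.820 for Myc, 0.554 for Mga, 0.619 for Mnt, 0.509 for Mxi1 and 0.707 for Mxd4. Relative to these genes, Myc and Mga were thus high and the 3 repressor genes low. Mxd3 was low too, at 0.423 against 0.814 for its length group. Max was at 0.654 against 0.488 and Mycn at 0.802 against 0.821. These 2 lay between the lower and upper quartile of their length groups, and the other genes lay outside theirs. In the null libraries the ratios were 0.974 for Myc, 1.09 for Mga, 0.132 for Mnt, 0.200 for Mxi1 and 0.176 for Mxd4. Of these, only Myc lay between the quartiles of its length group, 0.342 and 1.18.

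At 10 min the order was different. Max had the highest ratio, 1.77 in WT and 1.84 in the null libraries, where genes of its length had 1.25 and 1.24. Mycn was at 1.27 and 1.18, and its length group at 1.54 and 1.60. Mga, which had been at its steady-state level at 5 min, was at 0.448 in WT and 0.424 in the null libraries at 10 min, while genes of its length had 0.612 and 0.596. From 5 min to 10 min the mean of Mga thus changed by factors of 0.441 and 0.388, and that of its length group by 1.11 and 1.18.

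Mnt and Mxi1 stayed behind genes of their length. Mnt was at 0.617 in WT and 0.632 in the null libraries at 10 min, against 1.65 and 1.64 for its length group. Mxi1 was at 0.231 and 0.244, against 0.668 and 0.642. Mxd3 was at 0.557 in WT and at 0.916 in the null libraries, against 1.39 and 1.44. Mxd4 was at 0.930 and 0.435, against 1.73 and 1.75, on 25 to 35 reads per library. Myc was at 0.782 in WT and at 1.34 in the null libraries, against 1.46 and 1.51. All 8 genes except Max were below the median of their length group at 10 min in both genotypes. Max and Mycn lay between the lower and upper quartile of their length groups in both. So did Myc and Mxd3 in the null libraries, and Mga in WT, which was close to its lower quartile of 0.446. Mnt, Mxi1 and Mxd4 lay below the lower quartile in both genotypes, as did Myc and Mxd3 in WT and Mga in the null libraries.

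**Figure D3:**
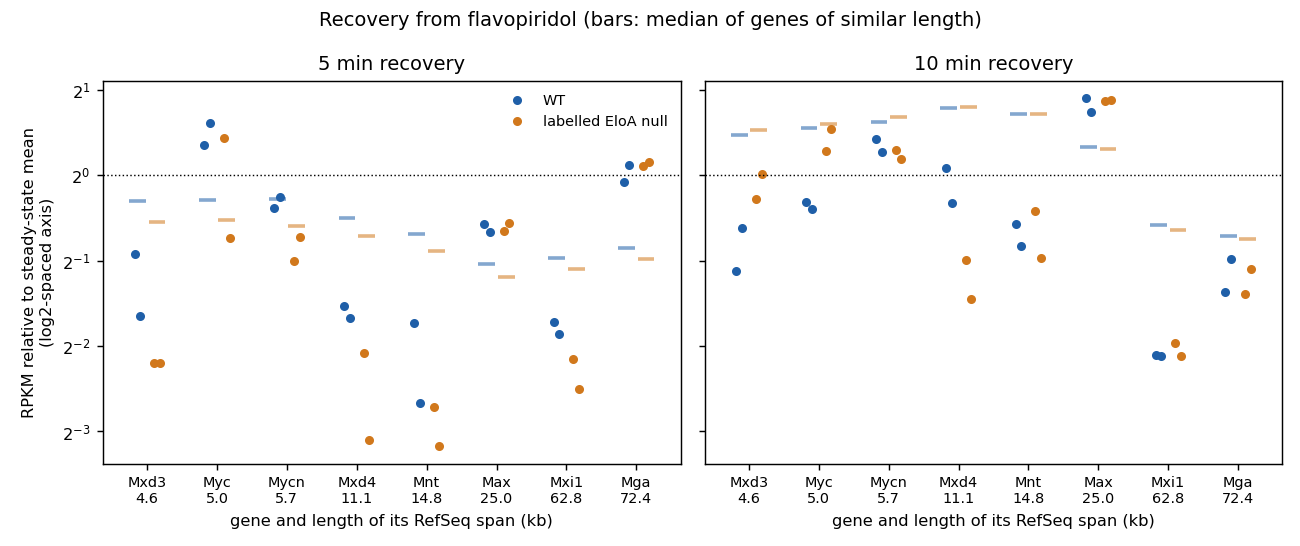
RPKM in each recovery library divided by the mean RPKM of the same genotype in steady state (vertical axis, spaced by log2), with genes ordered by length (kb, under each name). Points are single libraries, 2 per genotype, and bars are the median ratio of expressed genes of similar length. Mga lay above its bar at 5 min and below it at 10 min, Max lay above in both, and Mnt and Mxi1 lay below in both.

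The balance of Myc, Mycn and Max within a library does not depend on how the tables were scaled. Myc was lower than Mycn in all 12 libraries, with a Myc:Mycn ratio of RPKM from 0.0534 to 0.295. In steady state the ratio was 0.0868 and 0.0914 in WT and 0.0836 and 0.133 in the null libraries. At 10 min it was 0.0534 and 0.0564 in WT and 0.109 and 0.139 in the null libraries, with no overlap. Ratios at 5 min were 0.149 and 0.162 in WT and 0.295 and 0.108 in the null libraries. With 2 libraries against 2, an exact permutation test cannot give a p below 0.333, so these genotype differences were not tested further.

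Mycn:Max was 0.970 and 1.11 in WT and 1.28 and 1.45 in the null libraries in steady state. It was 1.18 and 1.37 in WT and 1.08 and 1.22 in the null libraries at 5 min. At 10 min it was 0.744 and 0.743 in WT and 0.916 and 0.846 in the null libraries, below the ratios of the other conditions in all 4 libraries. The log2 ratio at 10 min minus that in steady state was -0.56 ± 0.15, and minus that at 5 min it was -0.58 ± 0.10 (SE, 4 libraries against 4, both genotypes pooled). Both gave p = 0.0286 in a two-sided exact permutation test, which exchanged libraries without regard to genotype. This is the smallest p that such a test of 4 against 4 allows. It was 0.0857 after adjustment over the 9 comparisons made, so neither passed. The pooled libraries differed by genotype, with no overlap of Mycn:Max in steady state and at 10 min, so they are not 4 like replicates of a condition. Taken alone and without a test, WT gave changes of -0.48 from steady state and -0.77 from 5 min, and the null libraries -0.63 and -0.38. From steady state to 5 min the pooled change of Mycn:Max was 0.021, made up of 0.29 in WT and -0.25 in the null libraries. Myc:Max differed between 10 min and 5 min by -1.60 ± 0.49 with the same p and no overlap, and by -2.27 in WT alone and -0.92 in the null libraries alone. From steady state to 10 min, the log2 Myc:Mycn ratio changed by -0.70 in WT alone and 0.22 in the null libraries alone, and by -0.24 pooled. The other 6 comparisons had adjusted p from 0.129 to 0.886. The 5 min libraries were labelled for 5 min and the others for 10 min, so length of labelling and time of recovery cannot be told apart in comparisons with them.

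**Figure D4:**
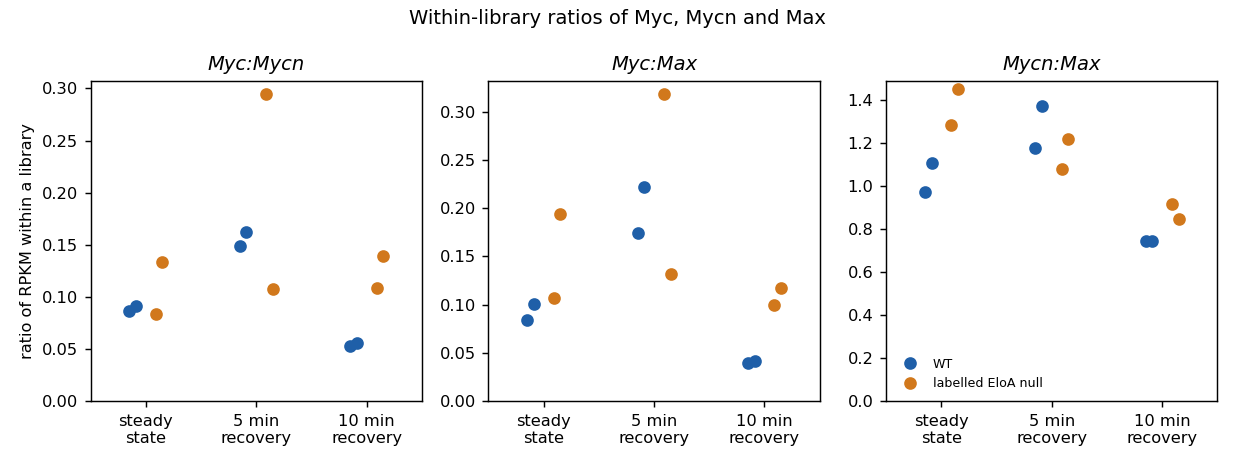
Ratio of RPKM of Myc to Mycn, Myc to Max and Mycn to Max within each library (vertical axes from 0) in steady state and at 5 min and 10 min of recovery. Points are single libraries, 2 WT and 2 labelled EloA null per condition. All Mycn:Max ratios at 10 min, 0.743 to 0.916, lay below those of the other conditions, which began at 0.970.

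The genes whose pattern over the 12 libraries was most like that of Mycn, by Pearson's r of log2(RPKM + 0.1) with each library centred on its median, were Pou5f1 (0.877), Tmem95 (0.871) and Rps21 (0.855), out of 10322 genes. Those most like Myc were Aprt (0.870), 6430503K07Rik (0.839) and Mrps2 (0.835). The 6 genes are between 1059 and 4746 bases long, as short as Myc and Mycn. The points share 3 conditions, and no test was made.

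Other genes of the pathway were counted from lists, to be read beside the shares of all tested genes given for the members. No gene of any list passed an adjusted p of 0.05 in any condition (limma). The other genes of the MAX and MLX network, Mycl, Mxd1, Mlx, Mlxip and Mlxipl, were all tested in steady state, where 0 had an unadjusted p under 0.05 and 0 were past 1.5-fold. The highest of them was Mlx, which encodes the MAX-like partner of the glucose-sensing factors, at 1.84 and 1.91 RPKM in WT and 2.10 and 1.87 RPKM in the null libraries. Of 19 cofactors and turnover factors of MYC, 0 were past 1.5-fold in any condition, where 9.31%, 12.1% and 12.4% of all genes were in steady state, at 5 min and at 10 min. Their median log2 difference in steady state was 0.055, beside 0.033 over all genes. Wdr5, which encodes a chromatin adaptor that binds MYC, was the highest of them, at 8.29 and 7.54 RPKM in WT and 7.17 and 9.49 RPKM in the null libraries. Of the 9 corepressor genes used by MXD and MNT proteins, 0 were past 1.5-fold in steady state and at 5 min and 1 at 10 min. That gene was Sap30, a SIN3 complex subunit gene named after its values were seen, at 12.5 and 15.7 RPKM in WT and 19.7 and 23.1 RPKM in the null libraries. Ncor1, a nuclear receptor corepressor and the highest of these, was at 10.95 and 12.34 RPKM in WT and 9.39 and 10.3 RPKM in the null libraries.

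Partners of MGA in PRC1.6 did not pass 1.5-fold in any condition among the 13, 9 and 11 of 13 genes tested in steady state, at 5 min and at 10 min. Rybp, which encodes a RING1 binding subunit, had the highest level, at 9.52 and 11.1 RPKM in WT and 10.97 and 10.68 RPKM in the null libraries. The shares of all genes past 1.5-fold were 9.31%, 12.1% and 12.4%. Of 17 germ line genes, 6 were above the 0.5 RPKM limit in steady state, 0 of them past 1.5-fold, and both null libraries were above WT for 3 (Stk31, Smc1b and Hormad1) and below WT for 2 (Dazl and Stag3), named after their values were seen, where 32.0% and 21.4% of all genes were. At 5 min 2 germ line genes were tested, and Stk31 was past 1.5-fold, at 1.01 and 1.22 RPKM in WT and 1.65 and 1.76 RPKM in the null libraries. At 10 min 5 were tested and 0 were past 1.5-fold. Stag3, a meiotic cohesin subunit gene and the highest of them, was at 4.195 and 4.689 RPKM in WT and 3.89 and 3.50 RPKM in the null libraries, a log2 difference of -0.26 ± 0.11 (adjusted p = 0.302).

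Of 30 genes that MYC is known to induce, 29 were tested. In steady state the null libraries were above WT for 14 of them and below for 3 (Npm1, Eif4e and Wdr43), and the median log2 difference was 0.11, beside 0.033 over all genes. At 5 min they were above for 2 (Gnl3 and Cdk4) and below for 7, with a median of -0.082 beside -0.060, and at 10 min above for 16 and below for 6, with a median of 0.16 beside 0.059. The shares of all genes above and below were 32.0% and 21.4% in steady state, 15.4% and 25.0% at 5 min, and 33.5% and 21.8% at 10 min. Eif4e, Wdr43 and Cdk4 were named after their values were seen. Gnl3, which encodes the nucleolar protein nucleostemin, was at 13.4 and 12.9 RPKM in WT and 21.4 and 19.8 RPKM in the null libraries in steady state, a log2 difference of 0.64 ± 0.10 (adjusted p = 0.111). Rrs1, a ribosome assembly gene, was at 1.37 and 1.84 RPKM in WT and 2.26 and 2.64 RPKM in the null libraries. Npm1, a nucleolar chaperone gene with the highest level of the list, lay the other way, at 63.9 and 62.6 RPKM in WT and 58.7 and 46.5 RPKM in the null libraries.

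Genes that MYC is known to repress numbered 6, of which 5 were tested in steady state. The null libraries were above WT for 2 and below for 1 (Cdkn2b, named after its values were seen), with 2 past 1.5-fold and higher, as were 7.21% of all genes. At 5 min 4 were tested, and 2 of them, Cdkn1a and Cdkn2b, were past 1.5-fold and lower, as were 6.72% of all genes. At 10 min 4 were tested, with Gadd45a past 1.5-fold and higher and Cdkn2b past it and lower, where 9.41% and 3.01% of all genes were. The median log2 difference of the list was 0.22, -0.23 and 0.13 in that order, beside 0.033, -0.060 and 0.059 over all genes. Gadd45a, a stress response gene, was at 1.22 and 0.917 RPKM in WT and 2.21 and 1.99 RPKM in the null libraries (log2 difference 0.92 ± 0.16, adjusted p = 0.117, limma). Ndrg1, also induced by stress, was at 0.352 and 0.294 RPKM in WT and 0.652 and 0.474 RPKM in the null libraries, and it passed the 0.5 RPKM limit only through the null libraries. Cdkn1a, the p21 cell cycle inhibitor gene, was the highest of the list and overlapped between genotypes in steady state, at 3.41 and 3.75 RPKM in WT and 3.29 and 3.85 RPKM in the null libraries. At 5 min it was at 2.90 and 2.95 RPKM in WT and at 1.70 and 1.74 RPKM in the null libraries.

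Markers of cell type were read with the same rule. Of the 6 pluripotency markers, the null libraries were above WT for 2 and below for 1 in steady state, above for 0 and below for 2 at 5 min, and above for 2 and below for 1 at 10 min, with median log2 differences of 0.12, -0.26 and -0.021. The medians over all genes were 0.033, -0.060 and 0.059. The shares of all genes above and below were 32.0% and 21.4%, 15.4% and 25.0%, and 33.5% and 21.8% in that order. Of the 8 fibroblast markers, 1 was tested in steady state and 2 at each recovery time. The null libraries were above WT for Vim in steady state and below WT for Col1a1, named after its values were seen, at 5 min (0.794 and 0.711 RPKM in WT against 0.573 and 0.385) and at 10 min (1.44 and 1.01 RPKM against 1.007 and 0.749). Pou5f1, the pluripotency factor gene whose pattern was most like that of Mycn, was at 7.36 and 8.48 RPKM in WT and 10.6 and 16.4 RPKM in the null libraries in steady state (log2 difference 0.73 ± 0.24, adjusted p = 0.227, limma). Zfp42, the highest pluripotency marker, was at 85.7 and 82.4 RPKM in WT and 74.7 and 79.6 RPKM in the null libraries. Vim, the highest fibroblast marker, which ESCs also transcribe, was at 1.56 and 1.54 RPKM in WT and 2.12 and 1.88 RPKM in the null libraries in steady state. The part of feeder cells in the values of the MYC network genes was not tested.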

How the data were processed

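Bru-seq libraries of mouse ESCs were analysed. The authors aligned reads to mm10 with Bowtie2 (2.3.4.3 in the submitters' processing notes), sorted them with SAMtools, counted genes with featureCounts 1.6.1 and normalized them with edgeR, and deposited RPKM values, 1 table per condition and 2 libraries per group. No scaling between tables, RefSeq release or strand setting is given in the sources used here. Reads were recovered with intron lengths from RefSeq models of GRCm38.p6, and the library sizes worked out were 9857518 to 28547373. Genotypes were compared with limma 3.58.1 in R 4.3.3, with an intensity trend, and ratios with exact permutation tests in SciPy 1.17.1. The limma step was tested on simulated data. Samples were grouped by title. Of the 24980 symbols, 24830 matched the annotation. The members, lists and tests were chosen with earlier results of these data known. The genes named from each list are the one with the highest steady-state WT level and up to 4 past 1.5-fold without overlap. Alternatives changed the pseudocount, filter, scaling, variance model, block and libraries, and the length window of the recovery ratios.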

Additional observations from a re-analysis of the deposited data

Results flagged for a closer look

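For 3 genes the null libraries lay on one side of WT in one condition and on the other side in another. Mxd3 and Mxi1 were above WT in steady state and below WT at 5 min of recovery, and the difference of their log2 genotype effects, 5 min minus steady state, was -0.76 (adjusted p = 0.705) and -0.43 (adjusted p = 0.705) by limma. Mxd4 was above WT in steady state and below WT at 10 min. It was under the 0.5 RPKM limit, and in a fit without that limit the difference was -0.68 ± 0.22 (adjusted p = 0.993, with an unadjusted p under 0.05). None of these differences passed the threshold. How many of all genes changed sides in this way was not counted. Of all tested genes, 32.0% were above WT in steady state, 25.0% below at 5 min and 21.8% below at 10 min. Mxd3 and Mxi1 were under the 0.5 RPKM limit at 5 min. Mxd3 then had 18 and 14 reads in WT and 11 and 16 in the null libraries.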

How the results depend on the processing

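No member passed the adjusted threshold under any alternative run. Counts over all genes did move. Against 0 genes in the main fit, genes passing the adjusted threshold in steady state were 132 with all 12 libraries in one fit and 81 with robust variance. At 5 min of recovery they were 532 with all 12 libraries, 128 with the replicate block and 29 with robust variance, and at 10 min 264 with all 12 libraries, 26 with robust variance, 5 with a pseudocount of 1, 12 with centred libraries, 6 with quantile normalization, 10 with the length trend removed and 12 with the GC trend removed. Leaving out 1 library gave 0 to 90 at 5 min and 0 to 81 at 10 min. Without the RPKM filter, genes past 1.5-fold numbered 5696, 6774 and 6661, and leaving out 1 library gave 1276 to 1685 at 5 min.

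Members past 1.5-fold in steady state were 0 with quantile normalization and with the length or GC trend removed, and 0 to 1 when 1 library was left out (0 without the second null library). At 5 min they were 1 without the filter (Mxd3) and 0 to 2 when 1 library was left out. For the change of the genotype difference at 5 min against steady state, 12 genes passed in the main fit, 3 with a pseudocount of 1, 2 with the replicate block and 56 without the filter. At 10 min it was 1 gene, and 4 and 27 with the pseudocount and without the filter.

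Replicate numbers were shared between genotypes, with correlations of their deviations of 0.101, 0.119 and 0.103 over 2 pairs a table, so they are not known to pair libraries. With the replicate block no member passed.

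Small log2 differences turned sign. In steady state Max was -0.058 with centring, -0.037 with quantile normalization, -0.0049 with the length trend removed and -0.031 with the GC trend removed, Mga was 0.017 and Mxd3 -0.00040 with the GC trend removed, and Mxi1 was -0.0055 with quantile normalization and -0.0017 with the GC trend removed. At 5 min Mga was 0.047 with centring, 0.13 with the length trend removed and 0.041 with the GC trend removed. At 10 min Max was -0.042 with centring and -0.026 with quantile normalization. Leaving out 1 library gave ranges of -0.054 to 0.058 for Max and -0.25 to 0.0042 for Mga in steady state, -0.44 to 0.57 for Myc, -0.27 to 0.0019 for Mycn, -0.042 to 0.057 for Max and -0.12 to 0.078 for Mga at 5 min, and -0.021 to 0.13 for Max at 10 min. The log2 Mycn:Max ratio, 5 min minus steady state, was 0.021 and ran from -0.077 to 0.12 when 1 library was left out, and it was 0.29 in WT alone and -0.25 in the null libraries alone. The causes were not tested. Read numbers limit Myc, Mxd3 and Mxd4 most, with as few as 15, 11 and 5 reads in a library.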
